A study of Bombyx mori with 4 samples.

Results

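CHIA, ARSB, PNLIPRP1 and LIPM homologs of the silkworm Bombyx mori, of the chitinase, arylsulfatase and lipase families, were examined on testis arrays of the op mutant and of wild type. They were chosen from the measured values, because 1 of the 2 op arrays, op replicate 2, lay above the other 3 arrays for every one of their probes. Each gene had 2 probes, so the set held 8 probes of 4 genes, out of 839 gene symbols in the annotation rows used. Each symbol is that of the human gene to which the study matched an expressed sequence tag (EST), so it stands for a homolog and not for a proven function. The tested animals were op mutant larvae, which have a translucent skin and little uric acid, on day 3 of the fifth instar, and they were set against wild-type larvae of the same stage. The methods give both as larvae fed mulberry leaves, and the gene mutated in op was not known to the study. Total RNA of the testis was labeled with Cy3 and hybridized to oligonucleotide arrays built from silkworm ESTs, with 2 arrays of op and 2 of wild type on 1 slide. The methods name more samples per genotype than were hybridized on this slide, and the labels do not say whether the arrays of a genotype hold RNA of separate animals, so differences between replicates may be technical, and p-values measure only the spread between these samples.

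Chitinases cut chitin, the polymer of the insect cuticle and of the lining of the gut and tracheae, and are best known in silkworms from molting. In mammals ARSB is a lysosomal enzyme that takes sulfate groups off glycosaminoglycans, the sugar chains of the extracellular matrix. PNLIPRP1 is a relative of pancreatic lipase, a secreted fat-digesting enzyme, and LIPM belongs to the family of acid lipases that includes the lysosomal and gastric lipases of mammals. All of them belong to families of hydrolases, enzymes that split their substrate with water, and the activity of the silkworm homologs was not tested.

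The processed signal of a spot is its fluorescence after background subtraction, with the error that the scanner software gives for that spot. All 8 probes were well above background on all 4 arrays and none of their spots was flagged or saturated. The local background of their 32 spots lay between 33.5 and 43, and the spot error was 10% to 19.7% of the signal. Between arrays, values were compared as normalized signals, in log2 units above or below the 75th percentile of the same array. The op arrays had that percentile at 503.8 and 639.2, against 640.4 and 574.6 for the wild-type arrays. A difference of 1 on this scale is a doubling, and differences are given per probe, since signals of different probes cannot be set against each other.

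The CHIA homolog was far brighter on op replicate 2 than on the other arrays, which lay close together. Probe Ka00132_1184 had a processed signal of 28.3 ± 4.24 and 231.0 ± 23.3 (spot error) on op replicates 1 and 2, against 40.9 ± 4.64 and 40.6 ± 5.02 on wild type replicates 1 and 2. After normalization these were -4.15 and -1.47 in op, against -3.97 and -3.82 in wild type. Op replicate 2 was thus 6.43-fold above op replicate 1 and 5.38-fold above the wild-type mean, while op replicate 1 was at 83.6% of that mean. Probe Ka00132_1224 had 37.3 ± 4.31 and 234.2 ± 23.5 in op, against 48.0 ± 5.08 and 42.9 ± 4.81 in wild type. Its normalized values were -3.75 and -1.45 in op and -3.74 on each wild-type array, so op replicate 1 was at 99.2% of wild type and differed from it by far less than the spot error.

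The PNLIPRP1 homolog had op replicate 2 highest and op replicate 1 lowest on both probes. Probe Ka02075_609 had a processed signal of 64.6 ± 6.81 and 478.8 ± 47.9 in op, against 107.3 ± 10.9 and 88.9 ± 9.17 in wild type. Normalized, it stood at -2.96 and -0.42 in op, against -2.58 and -2.69 in wild type. Op replicate 2 was 5.84-fold above op replicate 1, and op replicate 1 was at 79.6% of the wild-type mean. Probe Ka02075_676 had 39.3 ± 4.67 and 296.3 ± 29.7 in op, against 77.5 ± 7.99 and 62.8 ± 6.80 in wild type, or -3.68 and -1.11 against -3.05 and -3.19 after normalization. It held the deepest value of op replicate 1 among these probes, at 67.8% of the wild-type mean, and the smallest gap between op replicate 2 and the next array, 1.94 on the log2 scale.

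For the LIPM homolog the wild-type arrays were almost equal, and op replicate 2 stood well apart from them. Probe Ka02339_197, the dimmest of the set, had a processed signal of 12.2 ± 2.40 and 87.0 ± 8.96 in op, against 18.1 ± 2.43 and 16.4 ± 2.70 in wild type. The normalized values were -5.37 and -2.88 in op, against -5.15 and -5.13 in wild type. Probe Ka02339_506 had 97.6 ± 9.98 and 643.8 ± 64.4 in op, against 150.5 ± 15.1 and 138.5 ± 14.0 in wild type, which after normalization was -2.37 and 0.01 against -2.09 and -2.05. Op replicate 2 was 5.62-fold and 5.20-fold above op replicate 1 on these probes, and op replicate 1 was at 85.3% and 81.4% of wild type.

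The ARSB homolog differed from the rest in that both op arrays lay above both wild-type arrays. Probe Ka01767_623 had a processed signal of 40.4 ± 4.61 and 364.7 ± 36.5 in op, against 18.1 ± 2.50 and 21.4 ± 3.18 in wild type. Probe Ka01767_716 had 92.4 ± 9.59 and 812.4 ± 81.3 in op, against 40.1 ± 4.46 and 41.0 ± 4.83 in wild type. The normalized values of Ka01767_623 were -3.64 and -0.81 in op, against -5.15 and -4.75 in wild type, and those of Ka01767_716 were -2.45 and 0.35 in op, against -4.00 and -3.81 in wild type. Op replicate 1 was 2.47-fold and 2.74-fold above the wild-type mean on the 2 probes, and op replicate 2 was 17.6-fold and 19.0-fold above it. The step between the op arrays, 7.12-fold and 6.93-fold, was close to that of the other genes.

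**Figure D1:**
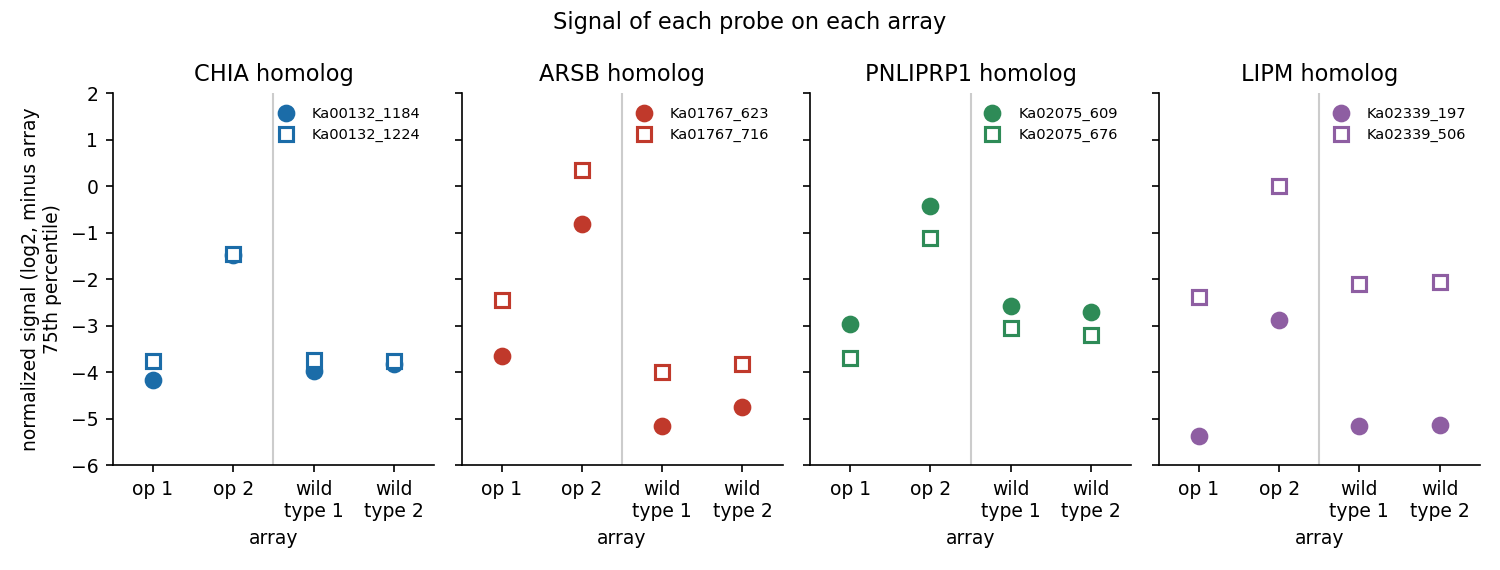
Normalized signal (log2, relative to the 75th percentile of each array) of the 8 probes on op replicates 1 and 2 and wild type replicates 1 and 2, with a panel for each homolog and a filled and an open symbol for its 2 probes. Op replicate 2 is the highest array in every panel, and only for ARSB does op replicate 1 also lie above wild type, by 1.31 and 1.46.

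Across the 8 probes, op replicate 2 exceeded op replicate 1 by 2.31 to 2.83 on the log2 scale, with a median of 2.56, and the median over all 30371 tested probes without a flagged spot was -0.0079. These differences led to the choice of the genes and are given as a description. Op replicate 2 lay more than 2 above every other array for 7 of the 8 probes, as did 0.217% of tested probes, 66 in all. Those 66 probes came from 53 ESTs, and 9 of them had a gene name. The annotation was used only in part and named 1793 tested probes, or 5.90%, and most of the 66 have no name here. By that gap the 8 probes ranked between 15 and 74 among tested probes, with ARSB at 15 and 17. The named probes next below them were SLC7A6 Ka01508_579 at 1.84 and MAMDC2 Ka01205_1204 at 1.53, against 1.94 for the lowest of the 8. Op replicate 2 also had 116 probes more than 2 below every other array.

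The 2 probes of each gene belong to the same EST, and whether their sequences overlap was not examined. They are not independent of each other as samples. Their steps from op replicate 1 to op replicate 2 differed by 0.38 for CHIA, 0.038 for ARSB, 0.026 for PNLIPRP1 and 0.11 for LIPM on the log2 scale. The numbers that end their IDs lay 40, 93, 67 and 309 apart, and on the slide the 2 spots of a gene lay 123, 133, 313 and 9 rows apart in the same order of genes. The spots within 2 rows and 2 columns of a probe, 11 to 17 tested probes each, had a median op replicate 2 minus op replicate 1 between -0.11 and 0.23. Near ARSB Ka01767_623 the highest of these spots came to 2.39. Since the 8 probes were chosen for their own difference, setting it against these spots is a description and no test.

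Without op replicate 2, most of these probes sat at or a little below wild type. Op replicate 1 was below both wild-type arrays for 6 of 8 probes, those of CHIA, PNLIPRP1 and LIPM, as it was for 40.9% of tested probes. The differences from the wild-type mean were -0.26 and -0.012 for CHIA, -0.33 and -0.56 for PNLIPRP1 and -0.23 and -0.30 for LIPM. The combined spot error was 0.25 and 0.20 for the CHIA probes, 0.18 and 0.20 for the PNLIPRP1 probes and 0.32 and 0.18 for the LIPM probes. So among these 6 only PNLIPRP1 Ka02075_676 differed by more than 2 combined spot errors, and CHIA Ka00132_1224 and LIPM Ka02339_197 differed by less than 1. With normexp background correction, in which an offset of 50 is added to the signals, op replicate 1 lay above the wild-type mean by 0.16 and 0.13 for CHIA and by 0.092 for LIPM Ka02339_197, so no direction can be given for these probes. The PNLIPRP1 probes and LIPM Ka02339_506 stayed below wild type in the 11 alternatives run, by 0.067 or more. Among those alternatives, other filters, keeping flagged spots and leaving out op replicate 2 cannot change this difference.

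Op replicate 1 was above both wild-type arrays for 2 of 8 probes, both of ARSB, as it was for 45.0% of tested probes. For both it was more than 1 above them on the log2 scale, as it was for 1518 of the 30371 tested probes. The differences from the wild-type mean, 1.31 and 1.46, were 5.93 and 7.66 times the combined spot error. They stayed above 0 in the 11 alternatives run, some of which cannot change them, at 0.59 or more for Ka01767_623 and 0.83 or more for Ka01767_716. When op replicate 1 alone was set against wild type in limma, 1 of 8 probes was called higher in op, Ka01767_716, where 5.21% of tested probes were. None of the 8 was called lower in that fit, where 2.58% were. The lone op array was there assumed to vary like the wild-type arrays. Over all tested probes, the 2 op arrays differed from each other with an SD of 0.69, against 0.36 for the 2 wild-type arrays.

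With both op arrays in the fit, 0 of the 8 probes were called between op and wild type (limma with Benjamini-Hochberg adjustment over all tested probes, adjusted p under 0.05), as were 0.316% of tested probes, or 96 of 30376. Of the 96, 43 were higher and 53 lower in op. The balance of higher to lower depended on the processing, with 5 to 10 after quantile normalization and 12 to 33 without scaling, but 301 to 113 with normexp and 310 to 154 with a trend and robust fit. At an unadjusted p under 0.05, limma gave 2 of the 8, both of ARSB, and 18.7% of tested probes, so the share was close to that of the array as a whole. The methods' t-test unadjusted gave 0 of the 8 and 13.9% of tested probes. Without op replicate 1 all 8 of 8 were called higher in op, where 4.62% of tested probes were, and op replicate 2 is the array whose values chose these genes. The op means exceeded the wild-type means by 0.73 to 1.14 for the 6 probes of CHIA, PNLIPRP1 and LIPM and by 2.72 and 2.85 for ARSB, with standard errors of 0.78 to 0.96. The SD of the 2 op arrays was 1.63 to 2.0 for the 8 probes and that of the 2 wild-type arrays 0.0042 to 0.28. Each op mean is thus the mean of 2 arrays that lay 2.31 or more apart.

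**Figure D2:**
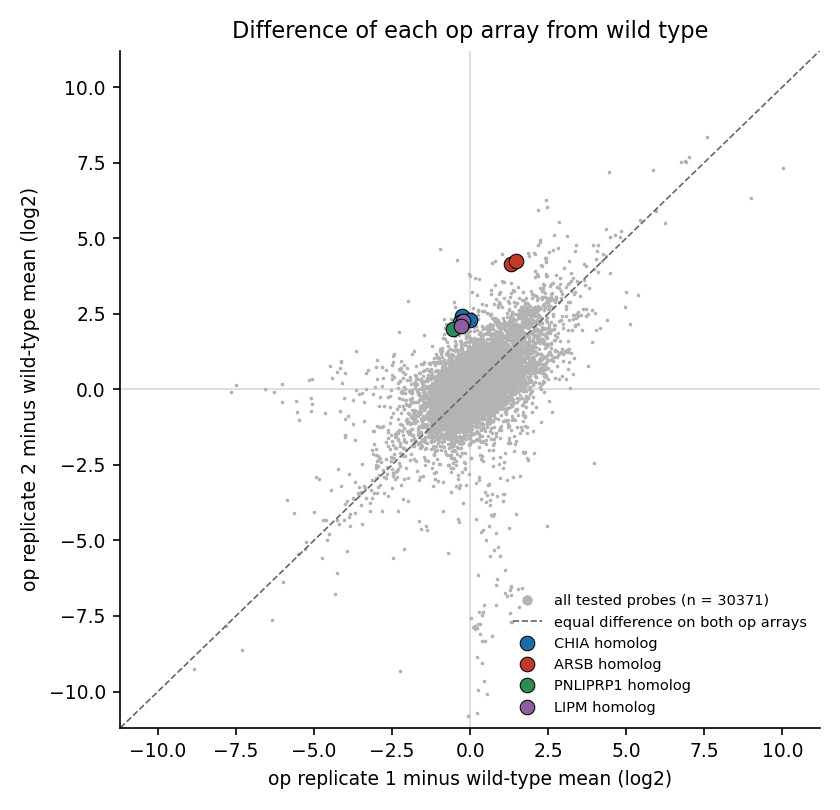
Op replicate 1 minus the wild-type mean (log2, horizontal) and op replicate 2 minus the wild-type mean (log2, vertical) for 30371 tested probes in grey and the 8 probes in color. Probes equal on both op arrays lie on the dashed line. CHIA, PNLIPRP1 and LIPM lie at -0.56 to -0.012 across and 2.01 to 2.43 up, and ARSB lies at 1.31 and 1.46 across and 4.14 and 4.25 up.

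Among other lipases and esterases, no probe had op replicate 2 more than 1 above every other array. Of 14 such genes in a list by symbol, 10 were tested, with 22 probes, and 0 of the 22 were called in limma (8 at an unadjusted p under 0.05, where 18.7% of tested probes were, and 5 by the methods' t-test unadjusted, where 13.9% were). Their median op replicate 2 minus op replicate 1 was 0.17, with a range of -1.09 to 1.02, and the count with op replicate 2 more than 1 above every other array was 0 of 22, where 1.19% of tested probes were. The median difference from wild type was -0.27 on op replicate 1 and -0.22 on op replicate 2. The genes of this list differed in direction. FAAH2, a fatty acid amide hydrolase, had both op arrays above wild type and op replicate 2 highest, as ARSB did. Its probes Ka01673_715 and Ka01673_755 were 1.40 and 1.41 above the wild-type mean on op replicate 1 and 2.29 and 2.18 above it on op replicate 2. The step between the op arrays was thus smaller, at 0.89 and 0.76, against 2.83 and 2.79 for ARSB. For PNLIP, the homolog of pancreatic lipase itself, the probe Ka01348_1193 stood at -1.52 and -2.61 in op, against -1.38 and -1.09 in wild type, with op replicate 2 the lowest array. LIPC, LIPG, LPL and PNLIPRP3, further lipases of these families, were not well above background on any array. FAAH2 and PNLIP were singled out after their values were seen. Among the probes of this list at an unadjusted p under 0.05 in limma, only those of FAAH2 were higher in op. Those of CES3, LIPK EST Ka01130 and CEL were lower. The op minus wild-type means were -1.40 and -1.50 for CES3, -1.06 on both LIPK probes and -0.40 on both CEL probes.

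Among other genes of lysosomes and of sugar chain breakdown, 16 of 18 were tested, with 43 probes, and 0 were called in limma (11 at an unadjusted p under 0.05, against 18.7% of tested probes, and 1 by the methods' t-test unadjusted). The median was 0.35 above wild type on op replicate 1 and 0.021 below it on op replicate 2, and op replicate 2 minus op replicate 1 ran from -2.65 to 1.93. Op replicate 2 lay more than 1 above every other array for 3 of the 43 probes, as for 1.19% of tested probes. Of these, 1 belonged to GUSB, a beta-glucuronidase that also acts on glycosaminoglycans. It stood at -4.68 and -3.34 in op, against -4.68 and -4.52 in wild type. As with CHIA, only op replicate 2 stood apart, but the step from op replicate 1 was smaller, at 1.34, against 2.69 and 2.31 for CHIA. The others belonged to SLC17A5, in mammals a transporter that carries sialic acid out of the lysosome. As with ARSB, both op arrays lay above wild type and op replicate 2 was highest. The step between the op arrays was smaller, at 1.02 on each probe, against 2.83 and 2.79 for ARSB. SLC17A5 Ka01170_607 stood at -2.28 and -1.26 in op, against -3.51 and -3.53 in wild type, and Ka01170_654 at -3.25 and -2.24 in op, against -4.47 and -4.65 in wild type.

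The probes nearest to the mean pattern of the 8 were found by the distance over the 4 arrays between values taken relative to each probe's own wild-type mean. That mean pattern was 0.13 on op replicate 1 and 2.71 on op replicate 2. On op replicate 1 it lay between the ARSB probes, at 1.31 and 1.46, and the others, at -0.56 to -0.012. Of 1785 named probes ranked, the 9 reported among the nearest 10 belonged to 6 genes, at distances of 0.75 to 1.19. Their steps from op replicate 1 to op replicate 2 were 1.02 to 1.53, smaller than the 2.31 or more of the 8. MAMDC2, PXDN and SPON1 had 2 probes each. PXDN encodes peroxidasin, an enzyme that crosslinks collagen of basement membranes, and SPON1 a secreted matrix protein. MAMDC2 Ka01205_1204 stood at -2.76 and -1.24 in op, against -3.51 and -3.30 in wild type, and PXDN Ka02466_828 at -1.02 and 0.21 in op, against -1.57 and -1.66 in wild type. SPON1 Ka01228_1062 stood at 2.06 and 3.22 in op, against 1.10 and 1.04 in wild type. The remaining 3 were single probes of the ribosomal protein gene RPL37A, of PCK2, a phosphoenolpyruvate carboxykinase, and of SLC17A5. For MAMDC2, PXDN and SPON1, op replicate 1 also lay above wild type, by 0.60 to 1.09, as it did for ARSB. The ARSB probes, at 1.86 and 2.03, were farther from the mean pattern than any of these, and the 6 other probes of the set lay at 0.44 to 1.0.

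Marker genes of tissues were set beside these values. Of 6 testis and sperm flagellum genes all were tested, and 0 of 12 probes were called (0 at an unadjusted p under 0.05, and 3 by the methods' t-test unadjusted). Their summed level over probes, in units of the 75th percentile and compared only between arrays, was 248.6 and 192.0 in op, against 208.4 and 232.5 in wild type. Relative to the other arrays, op replicate 2 was highest for DYNLRB2 Ka01354_1, at -5.34 and -4.70 in op, against -5.52 and -6.19 in wild type, and lowest for TUBA3D Ka01220_828, at 7.78 and 7.37 in op, against 7.47 and 7.63 in wild type. TUBA3D Ka01220_828 made up most of the sum. The germline genes PIWIL4 and NANOS3 were well above background on arrays of both genotypes.

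Gut enzyme genes differed in direction among themselves. Of 10 such genes 8 were tested, with 21 probes, of which 0 were called (7 at an unadjusted p under 0.05, against 18.7% of tested probes, and 3 by the methods' t-test unadjusted), and their summed level was 14.2 and 13.0 in op, against 14.3 and 15.1 in wild type. Most of that summed level came from MEP1B, whose probe Ka01361_701 stood at 2.22 and 1.99 in op, against 2.04 and 2.17 in wild type. CELA1 and CPO, digestive proteases, were not well above background on any array, and CPA4 was not in op. Their extremes were ANPEP Ka01422_1309, at -3.80 and -3.29 in op, against -5.34 and -5.62 in wild type, and the PNLIP probe above. ANPEP lay 2.19 and 1.91 above the wild-type mean on op replicate 2 on its 2 probes, and CPB1 lay at -0.69 and -1.58.

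Most probes of the muscle marker list lay above wild type on both op arrays, though none was called. Of 8 genes listed as muscle markers by human symbol, 6 were tested, with 12 probes. Whether each is particular to muscle in the silkworm was not tested. The summed level of the 12 probes was 9.33 and 12.3 in op, against 2.56 and 4.92 in wild type. The medians were 1.67 and 1.98 above wild type on op replicates 1 and 2. Both op arrays were more than 1 above both wild-type arrays for 5 of these 12 probes, as for 2.34% of tested probes, and 0 were called (8 at an unadjusted p under 0.05, against 18.7% of tested probes, and 1 by the methods' t-test unadjusted). TPM2 Ka01810_247, of tropomyosin, stood at -0.63 and -0.06 in op, against -3.63 and -1.88 in wild type. CKB Ka00843_466, named by its match to a human creatine kinase gene, stood at -0.86 and -1.0 in op, against -1.22 and -1.16 in wild type. MYH11, of a myosin heavy chain, lay at -0.62 and -0.66 from wild type on op replicate 1 and at 0.35 and 0.27 on op replicate 2 on its 2 probes. TMOD1 and TPM3 were not well above background on any array.

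All 5 basement membrane genes were tested, with 10 probes, at medians of 0.75 and 1.67 above wild type on op replicates 1 and 2. Their summed level was 6.21 and 7.70 in op, against 5.48 and 4.83 in wild type, and 0 were called (8 at an unadjusted p under 0.05, against 18.7% of tested probes, and 6 by the methods' t-test unadjusted). Most of that summed level came from LAMA4, whose probe Ka01183_475 stood at 1.79 and 1.82 in op, against 1.81 and 1.61 in wild type. Op replicate 2 lay more than 1 above every other array for 3 of the 10, as for 1.19% of tested probes. Both op arrays lay more than 1 above both wild-type arrays for 4 of the 10, as for 2.34% of tested probes. NID1 Ka02336_410, of the basement membrane protein nidogen, stood at -4.03 and -2.74 in op, against -6.23 and -6.73 in wild type, and LAMA4 Ka01183_455, of a laminin chain, at 0.17 and 0.03 in op, against 0.13 and -0.06 in wild type. As with ARSB, op replicate 1 lay above wild type and op replicate 2 higher still for NID1, COL4A5, COL4A6, MAMDC2 and PXDN EST Ka02466. The step between the op arrays was smaller than the 2.83 and 2.79 of ARSB. It was 1.29 and 0.88 for NID1, 0.51 for COL4A5, 0.41 and 0.30 for COL4A6, 1.53 and 1.39 for MAMDC2, and 1.23 and 1.08 for that PXDN EST. For NID1, op replicate 1 was already 2.45 and 2.64 above the wild-type mean. PXDN Ka00852_1200 stood at -3.59 and -3.62 in op, against -4.20 and -4.10 in wild type. In testis RNA, more cells of a type and more RNA per cell cannot be told apart, and the part of muscle or sheath tissue in the values of the 8 probes was not tested.

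**Figure D3:**
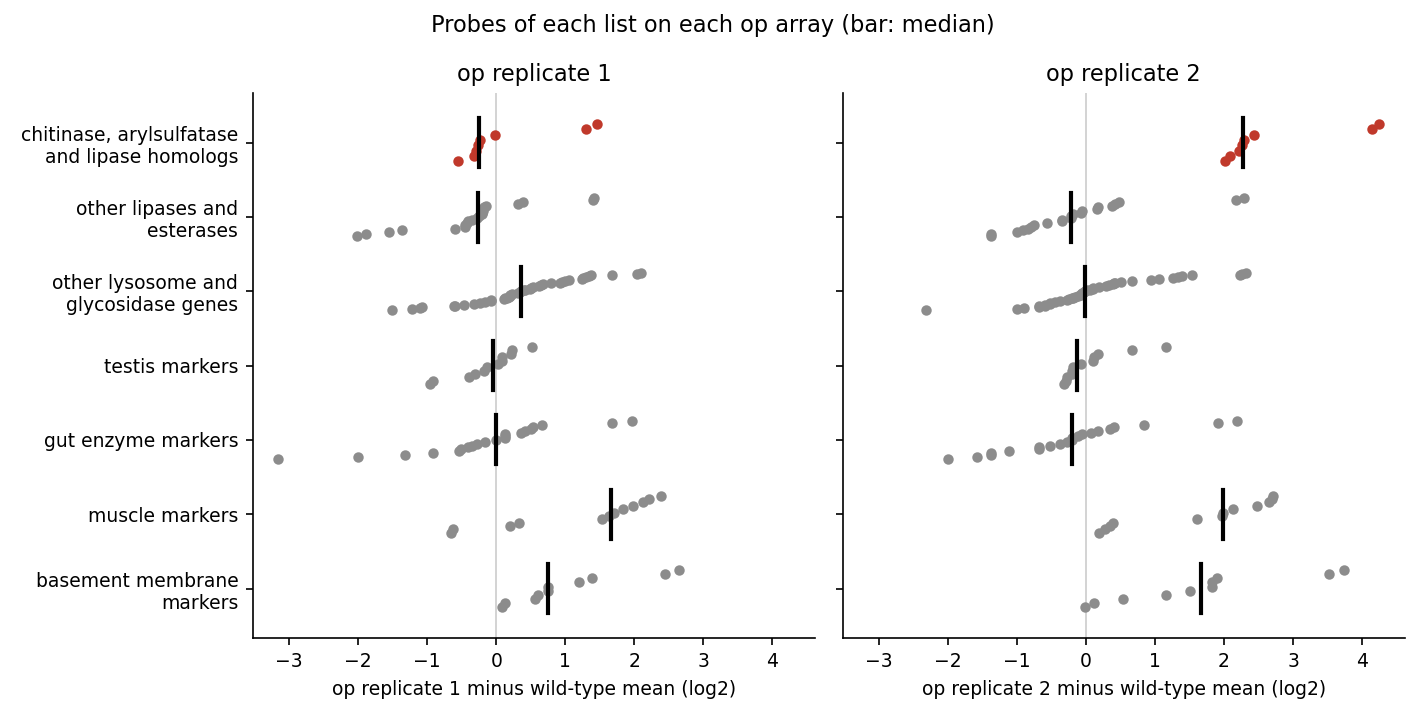
Difference from the wild-type mean (log2) on op replicate 1 (left) and op replicate 2 (right) of the 8 probes (red) and of the probes of 6 gene lists (grey), 1 point per tested probe and a bar at the median. The median of the 8 probes is -0.24 on op replicate 1 and 2.28 on op replicate 2, while muscle markers lie at 1.67 and 1.98 and basement membrane markers at 0.75 and 1.67.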

How the data were processed

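The deposited files hold 4 one-color arrays of testis RNA. Cy3 was the label, and Feature Extraction 9.5 was the authors' image software per the labels. The deposited processed signals are background-subtracted intensity values, and each spot carries quality flags. A table of the authors' normalized values on the log2 scale was deposited too and served as an alternative. Gene names came from 1999 annotation rows with 839 symbols, by human homology. The genes, lists and naming rule were chosen with earlier results of these data known: the rule names the 8 probes, list genes that were called or had op replicate 2 more than 1 above every other array, the 10 nearest probes and the extremes of each marker list. CEL, CES1 and FAAH2 are among the lipase genes, and PNLIP and LCT stand in the gut list too.

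Each processed signal was taken as log2 and shifted so that the 75th percentile of its array stood at 0. Each array had 45220 spots, 1417 of them controls, and 67.8% to 72.3% of 43803 probes were well above background. Control spots and 2 to 4 spots per array flagged as non-uniform were left out. The 30376 probes tested were well above background on the 2 arrays of op, of wild type or of both. For op against wild type, lmFit and eBayes were run in limma 3.58.1 under R 4.3.3 (two-sided, Benjamini-Hochberg, threshold 0.05), after the script was tested on simulated data. The number of arrays limits the precision. All arrays shared 1 slide and scan, so neither could be used as a block. Probe sequences and genome positions were not used here, and 1 of the 10 nearest probes belongs to a gene not reported here. The alternatives were normexp (on the median spot signal, offset 50), quantile, median and no scaling, the deposited normalized values, other filters, variance models and tests, a replicate block, and leaving out each array.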

Additional observations from a re-analysis of the deposited data

How the results depend on the processing

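The difference of op replicate 2 from op replicate 1 stayed above 0 for all 8 probes in the 10 alternatives run. It was 0.74 or more, the lowest being LIPM Ka02339_197 with normexp. The probes were chosen for this difference, so its sign is a description. Other filters, keeping flagged spots and leaving out a wild-type array cannot change it, so only the alternatives that alter the signals or their scaling bear on it. The median of the difference over the probes was 1.64 with normexp and 2.90 without scaling, against 2.56. The median of op replicate 1 minus wild type was 0.11 with normexp and -0.51 without scaling, against -0.24, and ran from -0.26 to -0.20 as each wild-type array was left out. With normexp the sign turned for CHIA Ka00132_1184 (0.16), CHIA Ka00132_1224 (0.13) and LIPM Ka02339_197 (0.092). The offset of that correction shrinks differences of dim probes. Of the 10 nearest probes, 5 were shared with normexp.

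The 96 called probes became 414 with normexp (301 higher and 113 lower in op, 64 of the 96 among them), 15 with quantile normalization, 45 without scaling, 0 without a filter on dim probes, 54 with probes well above background on all arrays, 464 with a trend and robust fit and 55 with array weights. The methods' t-test gave 4213 unadjusted and 0 adjusted. Leaving out 1 array gave 33 to 2413. Without op replicate 1, 2413 probes were called and all 8 probes were among them, without op replicate 2, 2366 and 1 of the 8. Apart from these fits with 1 op array, no alternative called any of the 8. The fit without op replicate 1 rests on op replicate 2, the array whose values chose these probes. In the fits with both op arrays, the gap between these arrays, for which the probes were chosen, enters the spread. Neither count is thus a test of the 8 probes.

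With the replicate number as a block, 715 probes were called and 0 of the 8. The labels give the numbers no meaning. The deviations of same-numbered arrays correlated at -0.030 over probes. With 2 arrays per genotype this cannot tell whether same-numbered arrays shared any handling. Over the whole array the block called 715 of 30376 tested probes. It called 2 of 22 probes of the lipase list, 1 of 43 of the lysosome list and 4 of 21 of the gut list. Of the muscle list it called 5 of 12 and of the basement membrane list 3 of 10. Without the block, 0 of each list were called. Normexp called 1 muscle and 1 basement membrane probe among its 414 called probes. The trend and robust fit called 1 lipase, 1 gut and 2 basement membrane probes among its 464. The methods' t-test unadjusted gave 5, 1, 3, 3, 1 and 6 for the lipase, lysosome, testis, gut, muscle and basement membrane lists. These lists held 22, 43, 12, 21, 12 and 10 tested probes in that order, and the t-test gave 13.9% of all tested probes. Leaving out 1 array gave 0 to 6, 0 to 10, 0 to 0, 0 to 4, 0 to 2 and 0 to 7 in that order. The causes of these shifts were not tested. Dim spots limit CHIA, LIPM and ARSB most, with processed signals down to 12.2 and spot errors up to 19.7%.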

Other observations

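Further named genes had op replicate 2 more than 1 above every other array and are given as a choice made with their values in view. The gluconeogenic enzyme PCK1 had 4 such probes from 2 ESTs. PCK1 Ka01206_832 stood at 4.14 and 5.19 in op, against 3.84 and 4.12 in wild type, and PCK1 Ka00487_469 at 1.77 and 3.12 in op, against 1.74 and 2.06 in wild type. GLDC, the decarboxylase of the glycine cleavage system, had 2 probes with op replicate 1 within 0.072 of wild type, and Ka02157_494 stood at -2.09 and -0.78 in op, against -2.19 and -2.10 in wild type. CANX, a chaperone of the endoplasmic reticulum, had op replicate 1 below both wild-type arrays on both probes, with -4.94 and -3.03 in op, against -4.50 and -4.45 in wild type for Ka00172_541. For SLC7A6 and SLC3A1, genes of amino acid transport, both op arrays lay above wild type with op replicate 2 highest, as for ARSB. The proportions differed. On the 2 probes of SLC3A1, op replicate 1 was already 2.35 and 2.37 above the wild-type mean, and op replicate 2 was 1.14 and 1.09 higher still. For ARSB the step between the op arrays was the larger part, at 2.83 and 2.79. SLC7A6 Ka01508_579 stood at -3.63 and -1.79 in op, against -5.32 and -5.04 in wild type, and SLC3A1 Ka00689_598 at -0.38 and 0.76 in op, against -2.78 and -2.68 in wild type. Across the whole array, 39 named probes of 22 genes met this measure, the 8 probes of the report included. Of all tested probes, named or not, 1.19% met it.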
